A study of Mus musculus with 4 samples.

Results

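Wt1, Tbx18, Tcf21 and Bnc1 are transcription factor genes of the embryonic epicardium and its descendants, and they were chosen by name: 4 of the 30268 genes in the deposited table, all of them present. Hearts of mouse embryos were profiled by Drop-seq, in which single cells are captured with barcoded beads in droplets and transcripts are counted as unique molecular identifiers (UMIs). The Lats1/2 CKO (conditional knockout) hearts carried Wt1 CreERT2/+, both Lats1/2 genes as F/F alleles and the Rosa26mTmG/+ reporter, at E13.5 and at E14.5. The control hearts carried the same Wt1 CreERT2/+ and Rosa26mTmG/+ alleles without the Lats1/2 F/F alleles, at the same stages. There was 1 library per genotype and stage, 4 in all. CreERT2 is a Cre recombinase that enters the nucleus after tamoxifen, and here it sits in the Wt1 gene itself. Per the labels, all 4 libraries therefore came from hearts in which 1 copy of Wt1 carried CreERT2, and none is labelled as having that copy intact. The Creert2 transcript had 163 and 32 UMIs in Lats1/2 CKO and control hearts at E13.5, with 57 and 8 at E14.5. Whether every control embryo carried the allele was not tested. Recombination can start only in cells that use the Wt1 gene, and the reporter switches from membrane tdTomato to membrane EGFP where it takes place.

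The epicardium is the mesothelial sheet that covers the heart. Some of its cells leave the sheet, become mesenchymal and give rise to cardiac fibroblasts and mural cells. Wt1 (a zinc finger factor), Tbx18 (a T-box factor) and Tcf21 (a basic helix-loop-helix factor) are classical markers of this layer. Tcf21 is also needed for the cardiac fibroblast lineage. Bnc1, basonuclin 1, is a zinc finger factor of stratified and mesothelial epithelia. Lats1 and Lats2 are the kinases of the Hippo pathway that restrain the coactivators YAP and TAZ, which act with the TEAD DNA-binding factors.

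In the GRCm38 annotation of GENCODE, Wt1 spans chr2:105126529-105173616 on the plus strand. An antisense gene, Wt1os, lies next to it at chr2:105076538-105126510 on the minus strand. Bnc1 spans chr7:81966672-81992292, Tbx18 chr9:87702800-87731260 and Tcf21 chr10:22817281-22820174, all on the minus strand. RefSeq promoters of GRCm38.p6, 250 bases before to 50 bases after the start, were at hand for 3 of the 4 genes. Those of Bnc1 and Tcf21 are shown because these genes had the most unlike levels across cells: Bnc1 was nearly restricted to epicardial cells and Tcf21 was highest in fibroblasts. Capitals mark the single match to a GATA factor motif, and all other bases are in lower case.
Bnc1 promoter, chr7:81992250-81992549, minus strand: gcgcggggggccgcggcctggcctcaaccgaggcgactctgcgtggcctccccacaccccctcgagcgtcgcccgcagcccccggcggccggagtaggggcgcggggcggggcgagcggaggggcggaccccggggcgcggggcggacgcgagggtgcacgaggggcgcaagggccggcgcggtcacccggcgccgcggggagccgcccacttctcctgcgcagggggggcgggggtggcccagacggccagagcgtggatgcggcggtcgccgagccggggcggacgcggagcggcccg
Tcf21 promoter, chr10:22820094-22820393, minus strand: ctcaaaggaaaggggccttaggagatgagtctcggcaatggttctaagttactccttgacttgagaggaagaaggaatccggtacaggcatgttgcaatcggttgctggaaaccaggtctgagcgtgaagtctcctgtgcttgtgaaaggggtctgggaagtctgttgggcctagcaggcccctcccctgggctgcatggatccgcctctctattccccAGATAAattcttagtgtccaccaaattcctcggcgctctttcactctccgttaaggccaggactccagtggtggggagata
The Bnc1 promoter was 83.3% G and C, against 53.3% for Tcf21, 51.7% for Tbx18 and a median of 52.7% over all 32851 promoters of that length. Both strands were searched for the TEAD motif GGAATG, the GATA motif AGATAA, the class A E-box CAGCTG, the T-box motif AGGTGTNA and the WT1 motif GNGTGGGNG. These were present in 14.7%, 11.2%, 16.3%, 3.03% and 14.3% of all promoters. The 1 match among the promoters of Bnc1, Tbx18 and Tcf21 was AGATAA in Tcf21, 31 bases before the start. A match is a description of the letters only.

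After filtering, the libraries held 4478 to 5915 cells, with median UMIs per cell of 2015 in Lats1/2 CKO and 1589 in control hearts at E13.5, while the E14.5 medians were 1035 and 955. No deposited cell of E13.5 had under 500 genes and none of E14.5 under 300, so depth and stage were tied, and 14 barcodes were shared between libraries. Cells were placed by Leiden clustering made without Wt1, Tbx18, Tcf21, Bnc1, Wt1os and the transgenes, and named from marker lists, and 8649 of 21495 cells carried the cardiomyocyte markers of the labelled tissue. Epicardial-like cells were 224 and 114 in Lats1/2 CKO and control hearts at E13.5, with 217 and 95 at E14.5. Fibroblast-like cells were 446 and 317 at E13.5, with 385 and 475 at E14.5. The fibroblast-like class joined a cluster mostly of E13.5 cells and a cluster mostly of E14.5 cells. The 12 epicardial markers, such as Upk3b and Msln, were all present in epicardial-like cells, summing to 5829 to 6227 CPM (counts scaled to a class total of 1000000 UMIs) per library, and to 50.6 to 189 CPM in fibroblast-like cells. The 10 fibroblast markers, mostly collagen and matrix genes, did not separate these classes: they summed to 18743 to 29641 CPM in epicardial-like and 13166 to 17894 CPM in fibroblast-like cells. The fibroblast-like clusters were led by Spon2, Ogn, Col14a1 and Lsp1 beside Tcf21, which the clustering had not used. The targeted genes could be followed only as 3′ tags, which need not lie in the deleted part: Lats1 measured 16.9 and 26.7 CPM, and Lats2 31.2 and 66.6 CPM, in epicardial-like cells of Lats1/2 CKO and control hearts at E13.5. At E14.5 Lats1 measured 21.2 and 43.3 CPM and Lats2 48.1 and 81.3 CPM. Both genes were lower in the Lats1/2 CKO library at both stages, on 8 to 25 UMIs each.

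Wt1 was highest in epicardial-like cells in every library. It measured 162 and 264 CPM there in Lats1/2 CKO and control hearts at E13.5, with 225 and 217 CPM at E14.5. In fibroblast-like cells it measured 43.6 and 51.2 CPM at E13.5, with 81.8 and 28.5 CPM at E14.5. The epicardial-like values did not overlap the fibroblast-like ones. Of 713 Wt1 UMIs in all kept cells, 53.4% lay in epicardial-like cells, which were 3.02% of the cells. A further 22.2% lay in fibroblast-like and 9.40% in coronary endothelial-like cells.

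Coronary endothelial-like cells, named from vessel markers and led by Fabp4 and Gpihbp1, held Wt1 at 25.4 and 37.1 CPM in Lats1/2 CKO and control hearts at E13.5, with 35.3 and 25.03 CPM at E14.5. Endocardial-like cells, the inner lining of the heart, stood at 3.29 to 6.24 CPM, and no library overlapped between these endothelial classes. Macrophage-like cells, which should lack Wt1, held 1 Wt1 UMI in the 4 libraries together. The coronary endothelial-like range overlapped that of fibroblast-like cells. For each 100 UMIs of the 12 epicardial markers, Wt1 UMIs were 2.61 to 4.36 in epicardial-like and 87.5 to 146 in coronary endothelial-like cells. Of the latter cells with a Wt1 UMI, 12 to 18 per library, some also held an epicardial marker UMI. The share was 12.5% in Lats1/2 CKO hearts at E14.5 and 0% in the other 3 libraries. The part of epicardial RNA or doublets in the Wt1 level of coronary endothelial-like cells was not tested. The other 3 factors were near 0 there, with 0 Bnc1 UMIs, 5 Tbx18 UMIs and 26 Tcf21 UMIs in 869 cells, and 10 of the Tcf21 UMIs came from 1 cell.

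Tbx18 reached more cell classes. It measured 268 and 514 CPM in epicardial-like cells of Lats1/2 CKO and control hearts at E13.5, with 241 and 249 CPM at E14.5. Fibroblast-like cells held 114 and 192 CPM at E13.5, with 127 and 74.4 CPM at E14.5, below every epicardial-like value. Valve mesenchyme-like cells, the cells of the cushions that form the valves, followed at 32.1 to 65.6 CPM. A cluster left unnamed because fibroblast and mural markers were both high in it held 35.3 to 77.3 CPM, which overlapped the valve range. Cardiomyocyte-like cells held 12.7 to 25.7 CPM, low per cell but 21.8% of the 1893 Tbx18 UMIs. That range lay just above the 8.40 to 12.4 CPM of macrophage-like cells, each of which rested on 2 to 4 UMIs.

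Tcf21 had the opposite order. It measured 766 and 980 CPM in fibroblast-like cells of Lats1/2 CKO and control hearts at E13.5, with 438 and 478 CPM at E14.5. Epicardial-like cells held 165 and 267 CPM at E13.5, with 158 and 141 CPM at E14.5, well under the fibroblast-like range. Valve mesenchyme-like cells held 91.8 to 191 CPM, which overlapped the epicardial-like range. Of the 4084 Tcf21 UMIs, 56.6% lay in fibroblast-like, 22.1% in valve mesenchyme-like and 8.20% in epicardial-like cells. In epicardial-like cells of Lats1/2 CKO hearts at E14.5, 1 cell held 28 of the 82 Tcf21 UMIs.

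Bnc1 was nearly restricted to the epicardial-like class, which held 90.1% of its 273 UMIs. It measured 125 and 141 CPM in epicardial-like cells of Lats1/2 CKO and control hearts at E13.5, with 117 and 195 CPM at E14.5. Fibroblast-like cells held 1.58 to 3.90 CPM, from 1 to 5 UMIs per library. Coronary endothelial-like and macrophage-like cells held 0 Bnc1 UMIs in all libraries.

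**Figure D1:**
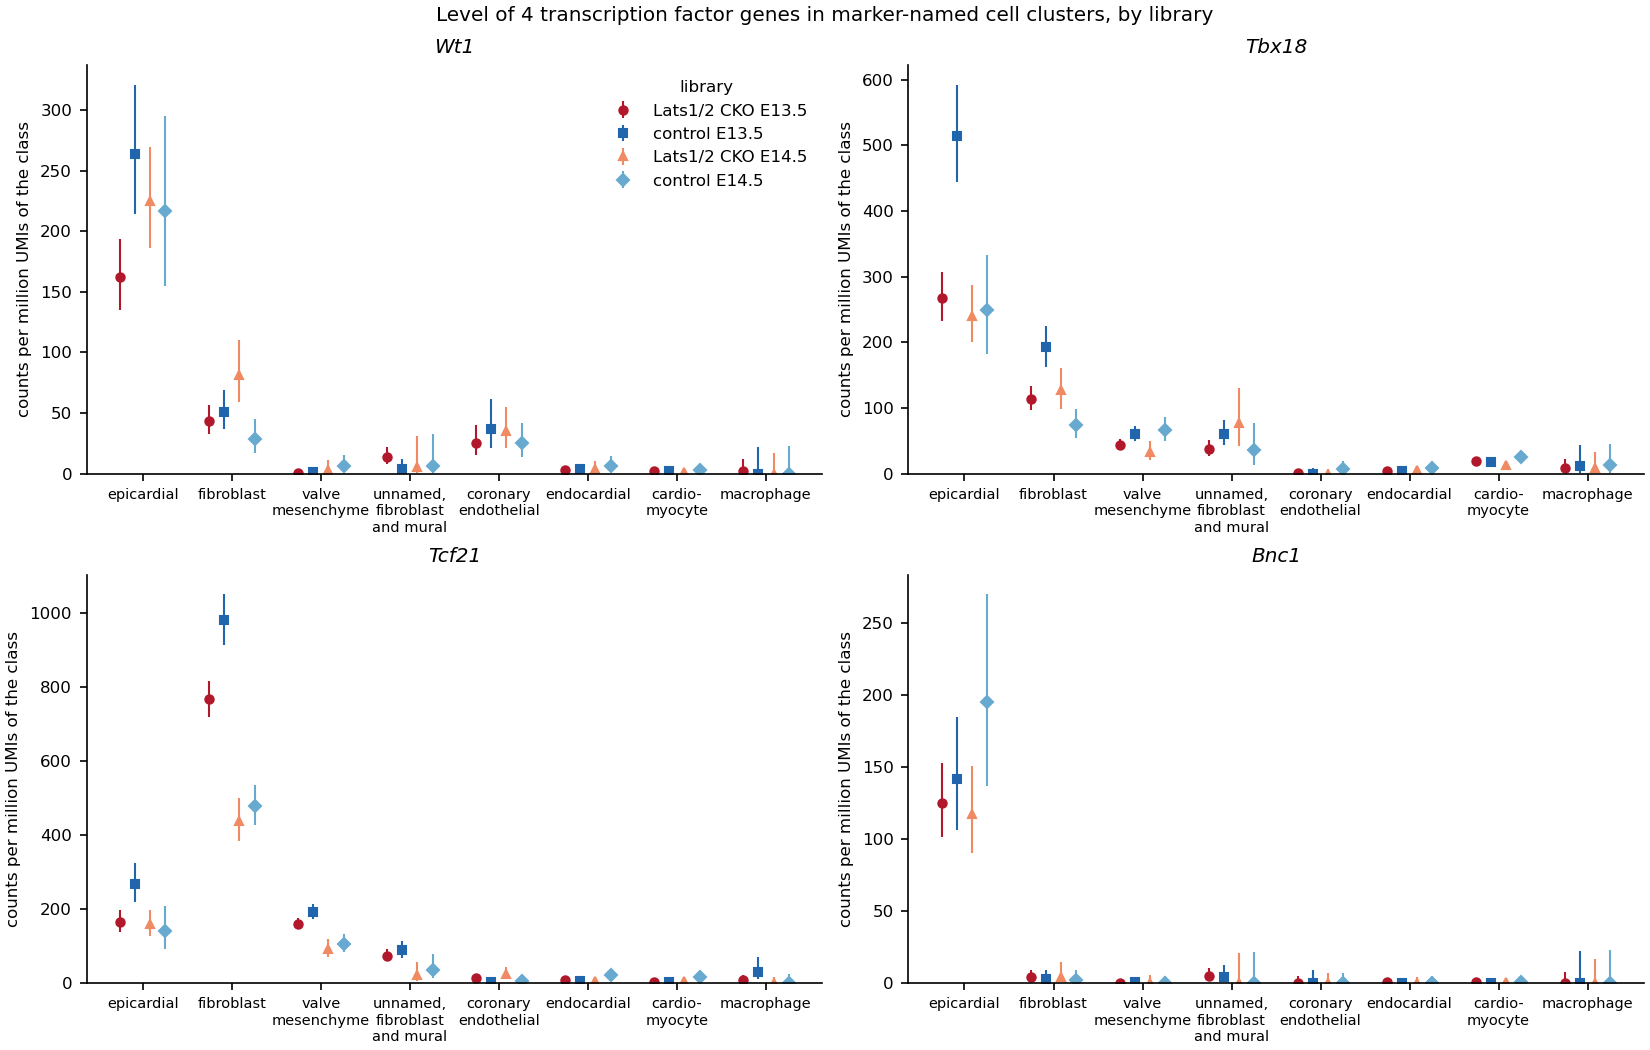
Level of Wt1, Tbx18, Tcf21 and Bnc1 (vertical axis, CPM, counts per 1000000 UMIs of the class) in 8 cell classes (horizontal axis), with 1 point per library and bars for the exact 95% Poisson interval, which covers counting error only. Wt1, Tbx18 and Bnc1 peak in epicardial-like cells, Tcf21 in fibroblast-like cells, and Wt1 has a second low level in coronary endothelial-like cells.

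Within each library the epicardial-like over fibroblast-like ratio ran the same way for each gene. For Wt1 the log2 ratio was 1.89 and 2.36 in Lats1/2 CKO and control hearts at E13.5, with 1.45 and 2.91 at E14.5. For Tbx18 it was 1.23 and 1.42 at E13.5, with 0.92 and 1.75 at E14.5. For Tcf21 it was -2.21 and -1.87 at E13.5, with -1.47 and -1.74 at E14.5. All of these intervals for counting error excluded 0. For Bnc1 it was 4.90 (95% interval 3.75 to 6.68) and 5.51 (3.90 to 8.91) at E13.5, with 4.60 (2.998 to 7.99) and 6.38 (4.38 to 12.3) at E14.5, on fibroblast-like counts of 1 to 5 UMIs. At both stages the Wt1, Tbx18 and Bnc1 ratios were lower in Lats1/2 CKO than in control hearts, while the order for Tcf21 differed between the stages. The intervals of the genotypes overlapped except for Wt1 at E14.5 (0.94 to 2.005 in Lats1/2 CKO and 2.09 to 3.82 in control hearts).

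The test of this contrast across libraries was run on cells gated directly by marker UMIs. Wt1, Tbx18, Tcf21 and Bnc1 were not among the markers. The epicardial gate was strict and held 105 and 42 cells of Lats1/2 CKO and control hearts at E13.5, with 74 and 14 at E14.5. The fibroblast gate was broad: of its 3775 cells, 32.1% were fibroblast-like, 39.3% valve mesenchyme-like and 10.9% epicardial-like, so it also held most epicardial-like cells. Bnc1 stood at 132 and 161 CPM in the epicardial gate of Lats1/2 CKO and control hearts at E13.5, with 138 and 311 CPM at E14.5, against 18.6 to 35.1 CPM in the fibroblast gate. Wt1 stood at 155 and 322 CPM at E13.5, with 235 and 415 CPM at E14.5, against 42.8 to 101 CPM in the fibroblast gate. The gates did not overlap for either gene. Tbx18 stood at 270 and 559 CPM at E13.5, with 178 and 104 CPM at E14.5, against 90.3 to 169 CPM in the fibroblast gate. The 104 CPM of the control library of E14.5 rested on 2 UMIs, too few to give a direction there. Tcf21 stood at 129 and 271 CPM at E13.5, with 114 CPM and 0 UMIs at E14.5, against 228 to 483 CPM. For these genes the gates overlapped across libraries.

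In edgeR's quasi-likelihood test over 8 sums, with the library as a block, all 4 genes passed the adjusted p of 0.05, against 9.16% of the 11030 genes tested, 4.79% higher and 4.37% lower. Bnc1 was higher in the epicardial gate by a log2 of 2.66 ± 0.29 (SE, adjusted p = 2.33e-18), Wt1 by 1.95 ± 0.24 (2.9e-14) and Tbx18 by 1.17 ± 0.22 (2.58e-06). Tcf21 was lower, with a log2 of -1.32 ± 0.24 (adjusted p = 1.06e-06). The fit had 3 residual degrees of freedom, so p-values this small rest mostly on an error pooled over all genes tested. Bnc1 and Wt1 had 1 direction in 4 of 4 libraries. So had Tcf21, but in the control library of E14.5 it rested on 0 UMIs among the 19292 of the epicardial gate. Tbx18 had 1 direction in the 3 libraries with more than 2 of its UMIs in that gate. The Tbx18 call was lost without the Lats1/2 CKO library of E13.5 (log2 0.90, edgeR adjusted p = 0.15), and with no library block Tbx18 and Tcf21 had edgeR adjusted p of 0.075 and 0.12. With the clusters in place of the gates the log2 was 5.43 for Bnc1 and 2.06 for Wt1.

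**Figure D2:**
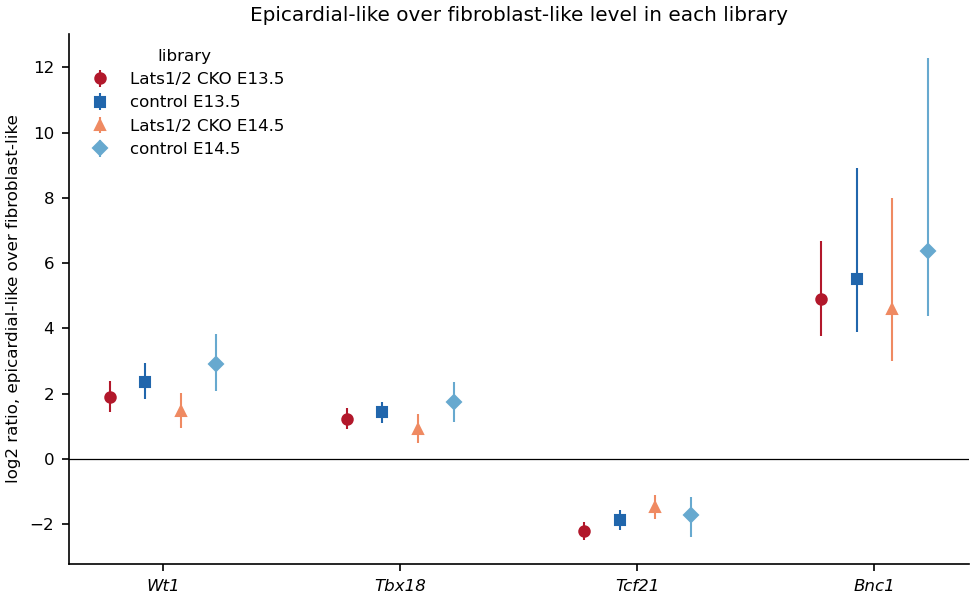
Log2 ratio of the level in epicardial-like over fibroblast-like cells (vertical axis) for the 4 genes (horizontal axis), with 1 point per library and bars for the exact 95% interval of counting error. Wt1, Tbx18 and Bnc1 lie above 0 and Tcf21 below 0 in every library, and Bnc1 is the highest at 4.60 to 6.38.

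The genotype comparison asks what losing Lats1/2 in Wt1-expressing cells does to these genes. In epicardial-like cells at E13.5, Wt1, Tbx18 and Tcf21 were all lower in the Lats1/2 CKO library than in the control library, and at E14.5 the libraries were close. The Wt1 levels given above make a log2 ratio of Lats1/2 CKO over control of -0.70 (95% counting interval -1.09 to -0.31) at E13.5, with 0.04 (-0.47 to 0.61) at E14.5. For Tbx18 the ratio was -0.94 (-1.23 to -0.65) at E13.5, with -0.06 (-0.55 to 0.47) at E14.5. For Tcf21 it was -0.69 (-1.08 to -0.30) at E13.5, with 0.15 (-0.49 to 0.86) at E14.5. For Bnc1 the E13.5 ratio was -0.19 (-0.68 to 0.33), while the E14.5 ratio was -0.74 (-1.35 to -0.10).

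The control library of E13.5 was the highest of the 4 for Wt1, Tbx18 and Tcf21. For Tbx18 and Tcf21 the other 3 libraries lay close together, and for Wt1 the Lats1/2 CKO library of E13.5 was the lowest. In that control library 1 cell held 15 of 99 Wt1 UMIs, 1 held 22 of 193 Tbx18 UMIs and 1 held 15 of 100 Tcf21 UMIs. Without the richest cell of each library the E13.5 ratios were -0.64, -0.88 and -0.59. Haemoglobin and other erythroid markers, RNA of blood cells, summed to 4264 and 352 CPM in epicardial-like cells of Lats1/2 CKO and control hearts at E13.5, with 2392 and 2920 CPM at E14.5. Cardiomyocyte markers summed to 4908 and 4156 CPM at E13.5, with 7811 and 7026 CPM at E14.5. The part of either list in the ratios was not tested.

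Over both stages, none of the 4 genes passed edgeR's quasi-likelihood test in epicardial-like cells, where 0.145% of 7573 genes did. The fitted log2 of Lats1/2 CKO over control was -0.36 ± 0.26 for Wt1, -0.55 ± 0.26 for Tbx18, -0.34 ± 0.28 for Tcf21 and -0.44 ± 0.28 for Bnc1 (SE, edgeR adjusted p of 0.80, 0.63, 0.82 and 0.76). At an unadjusted p under 0.05, 0 of the 4 passed in edgeR, against 8.04% of all genes. DESeq2 called 0 of the 4 as well, against 0.145% of all genes. The fit has 2 libraries per genotype and 1 residual degree of freedom, so a difference between the stages counts as error.

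In fibroblast-like cells the genotype ratio of Tbx18 changed sign between the stages. It was -0.75 (95% counting interval -1.09 to -0.42) at E13.5, where Lats1/2 CKO cells held 149 and control cells 154 UMIs in unequal totals, and 0.76 (0.20 to 1.34) at E14.5. Without the richest cell of each library, which in the control library of E13.5 held 20 UMIs, the ratios were -0.64 and 0.68. Wt1 stood at -0.24 (-0.84 to 0.39) at E13.5, with 1.5 (0.69 to 2.41) at E14.5, the higher Lats1/2 CKO value resting on 42 and 18 UMIs in Lats1/2 CKO and control cells. Epicardial markers moved the same way in these cells, summing to 106 and 139 CPM in Lats1/2 CKO and control hearts at E13.5, with 189 and 50.6 CPM at E14.5. Of the Lats1/2 CKO fibroblast-like cells of E14.5 with a Wt1 UMI, 24.3% also held an epicardial marker UMI, against 22.2% in control hearts, and the part of epicardial RNA in the ratio was not tested. Tcf21 was lower in the Lats1/2 CKO library at E13.5, with -0.36 (-0.49 to -0.22), and at E14.5 the ratio was -0.12 (-0.38 to 0.13).

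None of these passed edgeR's test in fibroblast-like cells, where 0.0109% of 9171 genes did. The fitted log2 was 0.59 ± 0.47 for Wt1, -0.06 ± 0.39 for Tbx18 and -0.21 ± 0.19 for Tcf21 (SE, edgeR adjusted p of 0.95, 0.997 and 0.95). At an unadjusted p under 0.05, 0 of these 3 passed in edgeR, against 5.20% of all genes. DESeq2 called 0 of the 3, against 0.109% of all genes. Bnc1 was too low to be tested. The difference between the classes, the genotype effect in epicardial-like minus that in fibroblast-like cells, was -0.87 ± 0.33 for Wt1 (edgeR adjusted p = 0.40), and it too fell short where 0.430% of 9768 genes passed. For the other 3 genes it was -0.06 to -1.26, with edgeR adjusted p of 0.76 to 0.98. Of the 4, Wt1 alone had an unadjusted edgeR p under 0.05, as had 7.35% of all genes. DESeq2 called 0 of the 4, against 0.0205% of all genes.

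**Figure D3:**
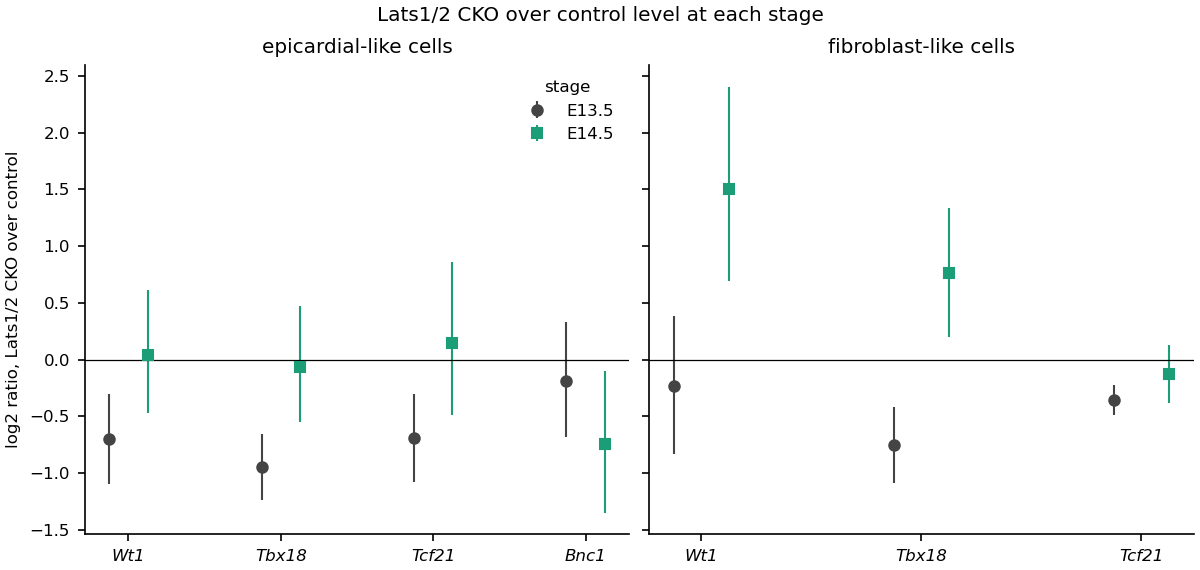
Log2 ratio of Lats1/2 CKO over control (vertical axis) at E13.5 and E14.5 for the genes (horizontal axis) in epicardial-like cells, left, and fibroblast-like cells, right, with bars for the exact 95% interval of counting error from 1 library per genotype and stage. Tbx18 in fibroblast-like cells lies at -0.75 and 0.76 for these stages, and Bnc1 is left out there for its low counts.

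Between the stages, Tcf21 was lower at E14.5 in fibroblast-like cells of both genotypes. The log2 of E14.5 over E13.5 was -0.80 (95% counting interval -1.02 to -0.60) in Lats1/2 CKO and -1.03 (-1.23 to -0.84) in control hearts. The edgeR fit gave -0.82 ± 0.19 with an edgeR adjusted p of 0.50, so Tcf21 did not pass where 0.338% of 9171 genes did. With no filter on low counts it passed, with a log2 of -0.88 (edgeR adjusted p = 0.0095). Wt1 and Tbx18 had no unadjusted edgeR p under 0.05 there, as 8.64% of all genes had. DESeq2 called 0 of the 3, against 0.654% of all genes. Tbx18 in fibroblast-like cells was lower at E14.5 in control hearts, with -1.36 (-1.87 to -0.89), and near level in Lats1/2 CKO hearts, with 0.16 (-0.29 to 0.58). In epicardial-like cells none of the 4 genes passed the stage test, where 1.07% of 7573 genes did. Their fitted log2 lay from -0.48 for Tbx18 to 0.24 for Bnc1 (edgeR adjusted p of 0.67 to 0.88). At an unadjusted edgeR p under 0.05, 0 of the 4 passed, against 8.44% of all genes. DESeq2 called 0 of the 4, against 0.621% of all genes. The fibroblast-like cells of the 2 stages lay in different clusters and had unequal depth, and stage could not be told apart from either.

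The Creert2 transcript, made from the Wt1 gene, was also highest in epicardial-like cells, and it was higher in the Lats1/2 CKO library at both stages. In epicardial-like cells it measured 89.6 and 40.0 CPM in Lats1/2 CKO and control hearts at E13.5, with 57.7 and 5.42 CPM at E14.5, the last of these from 1 UMI. In coronary endothelial-like cells it measured 25.4 and 4.95 CPM at E13.5, with 27.9 and 3.58 CPM at E14.5. Both genotypes carry the same allele per the labels, and both Lats1/2 CKO libraries lay above both control libraries in epicardial-like cells. The edgeR fit there gave a log2 of 1.62 ± 0.49 (edgeR adjusted p = 0.38), which did not pass. Egfp did pass, with 3.18 ± 0.31 (edgeR adjusted p = 0.00049). It measured 612 and 88.0 CPM in Lats1/2 CKO and control hearts at E13.5, with 585 and 37.9 CPM at E14.5. Macrophage-like cells held Egfp at 37.8 and 11.9 CPM in Lats1/2 CKO and control hearts at E13.5, with 40.4 and 43.5 CPM at E14.5. The epicardial-like value of the control library of E14.5 rested on 7 UMIs and lay below that of its macrophage-like cells.

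Wt1os was also highest in epicardial-like cells, at 26.0 to 34.6 CPM, against 6.12 to 11.7 CPM in fibroblast-like cells. It passed the gate test with a log2 of 2.08 ± 0.55 (edgeR adjusted p = 0.0028). The annotated spans of Wt1 and Wt1os do not overlap. In Lats1/2 CKO hearts, epicardial-like cells with an Egfp UMI held Wt1 at 194 CPM (95% counting interval 154 to 240), against 124 CPM (89.9 to 167) in those without, at E13.5. At E14.5 the values were 237 CPM (188 to 295) and 203 CPM (143 to 280). For Tbx18 they were 260 and 277 CPM at E13.5, with 243 and 236 CPM at E14.5. Tcf21 stood at 139 and 196 CPM, then 178 and 121 CPM, and Bnc1 at 132 and 116 CPM, then 121 and 110 CPM. In control hearts 12 and 5 cells held an Egfp UMI, with Wt1 at 266 against 263 CPM at E13.5 and 271 against 205 CPM at E14.5. Lats1/2 CKO cells with an Egfp UMI were deeper, with a median of 3261 UMIs against 2045 at E13.5 and of 1643 UMIs against 954 at E14.5. The part of depth in these values was not tested.

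Each factor was found in a minority of cells once depth was made equal. With every cell thinned to 500 UMIs, Wt1 was found in 8.48% and 12.3% of epicardial-like cells of Lats1/2 CKO and control hearts at E13.5, with 8.76% and 9.47% at E14.5. Without thinning the shares were 34.8% and 43.0%, and 27.2% and 27.4%. Tbx18 was found in 7.37% to 21.9% of thinned epicardial-like cells, Tcf21 in 5.07% to 10.5% and Bnc1 in 4.15% to 10.5%. In fibroblast-like cells Tcf21 was found in 27.8% and 38.8% of thinned Lats1/2 CKO and control cells at E13.5, with 16.9% and 22.1% at E14.5. Wt1 was found there in 1.57% to 2.86% of cells. Macrophage-like cells, which should lack these genes, reached at most 1.16% in any library for any of the 4 after thinning. Unthinned they reached 2.74%, at median depths of 850 to 2143 UMIs, against 1008 to 2437 UMIs in epicardial-like cells.

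Unthinned, 13 of 224 cells in Lats1/2 CKO and 15 of 114 in control hearts at E13.5 held all 4 factors, as did 9 of 217 and 4 of 95 at E14.5. At least 1 factor was found in 75.9% and 81.6% of these cells at E13.5, with 52.5% and 53.7% at E14.5. The 6 pairs were met together in epicardial-like cells at 500 UMIs in 4 to 9 of 650 cells, which was 0.98 to 1.36 times the number expected from independent detection. All 6 exact 95% Poisson intervals included 1. At 1000 UMIs, Tcf21 and Bnc1 were met together in 13 of 467 cells, 2.28 times the expected number (1.21 to 3.89), and the other 5 intervals included 1. Unthinned, the 6 pairs stood at 1.27 to 1.54 times the expected number, and all intervals lay above 1, in cells of unequal depth. In thinned fibroblast-like cells, Wt1 with Tcf21 was met in 12 of 1623 cells, 1.38 times the expected number (0.72 to 2.42), and Wt1 with Tbx18 in 0, where 1.87 were expected.

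**Figure D4:**
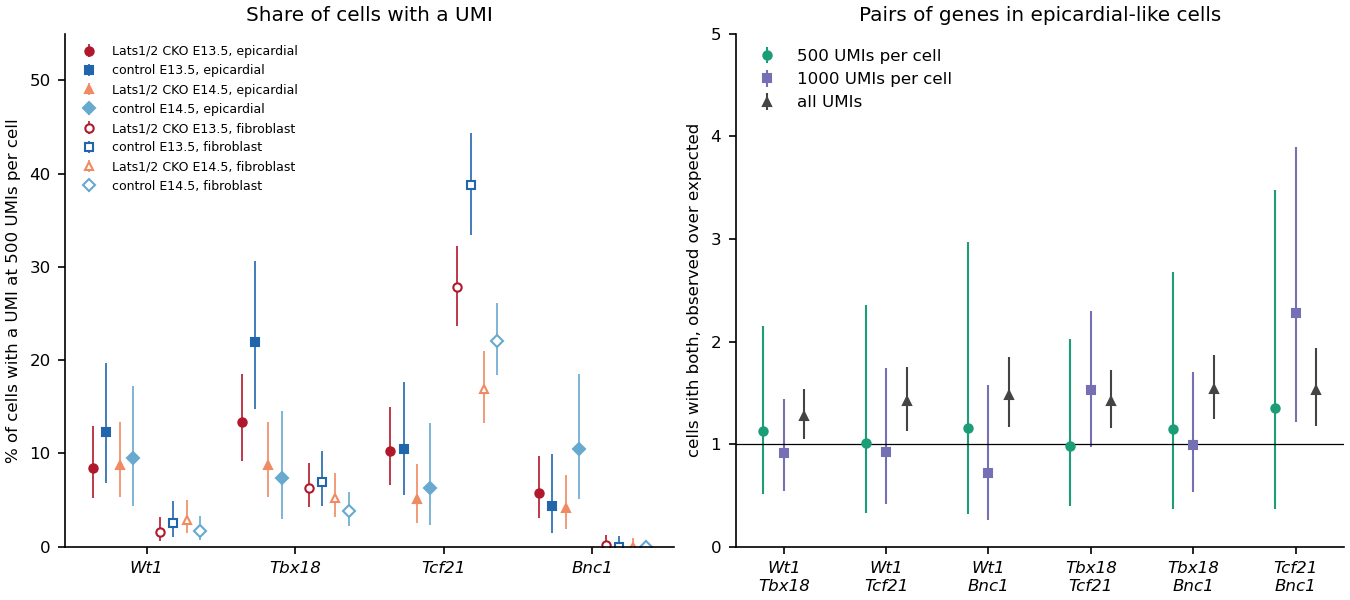
Left, percentage of cells with a UMI of each gene after thinning to 500 UMIs (vertical axis) for epicardial-like cells, filled points, and fibroblast-like cells, open points, per library with exact 95% binomial intervals; right, cells with both genes of a pair as a ratio to the number expected (vertical axis) in epicardial-like cells pooled over libraries, with exact 95% Poisson intervals. At 500 UMIs the pair ratios lie at 0.98 to 1.36 and all intervals hold 1.

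Across 8 classes in 4 libraries, 32 points that share libraries and depth, the log2 levels of Tbx18 and Tcf21 had Pearson r = 0.82 and those of Wt1 and Bnc1 r = 0.84, while Tcf21 and Bnc1 had r = 0.41. Among 7951 genes compared, those most like Bnc1 were Rspo1 (r = 0.99), Upk1b, Lrrn4, Krt7 and Msln, all 5 of them epicardial markers of the list. Those levels had been used to cluster and name the cells. The genes most like Wt1 were Aldh1a2 (r = 0.91), the retinoic acid enzyme of the epicardium and a marker of its gate, then Apela, Prss23, Wwc2 and Plscr2. Tbx18 was most like Sema3d (r = 0.96), a secreted guidance cue, then Pcolce, Celf4, 1500015O10Rik and Bex2. Tcf21 was most like Kcne1l (r = 0.91) and the collagen genes Col6a2, Col11a1 and Col6a1, and then Celf4.

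Other transcription factors of the epicardium and its derivatives were compared in the same gate test. The list also held Basp1, which is not itself a transcription factor and is counted with them here and below. Of 24 listed, 23 were tested, 2 were higher in the epicardial gate and 10 lower, against 4.79% higher and 4.37% lower of all genes. Their median log2 was -0.53, against -0.085 over all genes. DESeq2 called 7 of them, against 5.15% of all genes. The higher ones were Nr2f2, an orphan nuclear receptor, with 0.88 ± 0.29 (SE, edgeR adjusted p = 0.027), and Basp1, a partner of the Wt1 protein, with 0.79 ± 0.22 (0.0044). The lower ones included Sox9 with -3.81, Zeb2 with -3.64, Snai2 with -3.16 and Tbx20 with -2.91, of which Snai2 and Zeb2 are factors of epithelial-mesenchymal transition and Sox9 is a marker of valve mesenchyme. Twist1, Snai1, Prrx1, Scx, Osr1 and Zeb1 were also lower, from -1.08 to -2.39. Sox9 and Scx were themselves markers of the valve mesenchyme gate, so their place in the count was not independent of the gating. A cell that passed several gates went to the one with the largest marker excess. The fibroblast gate held 39.3% valve mesenchyme-like cells, and the part of these cells or of the gating rule in these values was not tested. Of 8 genes described as Wt1 targets, 7 were tested. Aldh1a2 was higher, against 4.79% of all genes, but it was itself a marker of the epicardial gate. Lef1, Snai1, Itga4 and Nes were lower, from -1.56 to -3.90, against 4.37% of all genes. DESeq2 called 3 of the 7, against 5.15% of all genes. Lef1 was among the leading genes of a valve mesenchyme-like cluster, and the part of such cells in these values was not tested.

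No gene of either list passed the genotype test in epicardial-like cells. Of 16 transcription factors tested there, 2 had an unadjusted edgeR p under 0.05, as had 609 of all 7573 genes (8.04%): Gata5 with a log2 of 1.81 ± 0.72 (adjusted p = 0.56) and Gata6 with -0.51 ± 0.24 (0.61). The next smallest p was that of Tbx20, with 0.74 ± 0.38 (0.67). Of the 3 Wt1 target genes tested, 0 had such a p, and Aldh1a2 stood at 0.02 ± 0.24 (edgeR adjusted p = 0.99). The median log2 was 0.03 for the transcription factors and 0.02 for the targets, against 0.003 over all genes. In fibroblast-like cells 0 of 18 transcription factors and 0 of 5 targets passed the genotype test, with 1 of each list under an unadjusted edgeR p of 0.05, against 5.20% of all 9171 genes. The target was Aldh1a2, with a log2 of 1.40 ± 0.42 (edgeR adjusted p = 0.95). The stage tests passed 0 of 16 and 0 of 18 transcription factors, and 0 of 3 and 0 of 5 targets, in epicardial-like and fibroblast-like cells. The difference of genotype effects passed 0 of 20 and 0 of 5. In these 3 tests 2 genes of the transcription factor list and 1 target each had an unadjusted edgeR p under 0.05. Basp1 was among them in both stage tests. The shares of all genes were 8.44% in the stage test of epicardial-like cells, 8.64% in that of fibroblast-like cells and 7.35% in the test of the difference. DESeq2 called 0 genes of both lists in all 5 of the genotype, stage and difference tests, against 0.0205% to 0.654% of all genes.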

How the data were processed

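The authors deposited 1 merged table of whole UMI counts per gene and cell, in which 0 columns were left unused. Lysis took place in the droplets and the library kit was Illumina Nextera XT, per the labels. STAR, Picard and the mm10 genome are named in the submitters' processing notes. Not given in the sources used here are tool versions, gene models, use of strand, sorting, the tamoxifen schedule and the number of embryos. The design text gives 13.4 days where the labels, followed here, give E13.5.

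Of 24849 cells, 21495 passed the limits of 500 UMIs and 300 genes or more and no more than 20% mitochondrial UMIs. Scrublet marked 10 cells in all, too few to count as a working doublet call, so doublets may remain, and an alternative left out the top-scored 5%. Cells were clustered jointly with scanpy 1.11.5 (3248 variable genes, 30 components, 15 neighbours, Leiden resolution 1). A class name needed at least 3 markers. A gate needed an excess of marker UMIs over the Poisson expectation of z of at least 2. The planned epicardial gate held under 50 cells in 2 libraries, so levels, shares and tests within a class used the clusters instead, and the epicardial over fibroblast test kept the gates.

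Counts were summed per class and library and tested with edgeR 4.0.16 (TMM, filterByExpr, quasi-likelihood, Benjamini-Hochberg adjustment over all genes tested, threshold 0.05), with the library as a block for the gates and stage or genotype as a term otherwise. DESeq2 1.42.0 was an alternative. There was 1 library per genotype and stage, so no p-value measures a spread between replicates of a group. In the genotype and stage tests the error is how the genotype effect differed between the stages. In the gate test it is how the gate contrast differed between libraries. In the difference test it is how the class contrast differed between the stages within a genotype. In all of them edgeR draws the error of each gene toward that of all genes tested. A small p-value is therefore not a measure of agreement between the libraries for that gene alone. The libraries carry no replicate number that pairs animals; the block is the library both gates came from. CPM intervals were exact Poisson, shares exact Clopper-Pearson and ratios exact conditional binomial at 95%, with 0.5 counts added for the point ratio, all for counting error only. Shares and pairs used cells thinned to 500 UMIs. Genes alike in pattern were the 5 with the highest Pearson r of log2(CPM + 10) among genes of at least 20 CPM on average. Code was tested on simulated data. With a simulated dispersion (spread beyond counting error) of 0.05, the genotype test recovered 4% of 2-fold changes in epicardial-like cells. In fibroblast-like cells it recovered 5%. Of 4-fold changes it recovered 59% and 63% in these classes. The dispersions of the data were 0.042 and 0.049. The difference test recovered 12% of 2-fold changes at 0.01, near the 0.0097 of the data. A gene that did not pass may therefore still differ 2-fold. The 4 genes and all lists were chosen with earlier results of these data known, among them the lists of other transcription factors and of Wt1 targets.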

Additional observations from a re-analysis of the deposited data

Results flagged for a closer look

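Tbx18 in fibroblast-like cells had a log2 ratio of Lats1/2 CKO over control of -0.75 at E13.5 and of 0.76 at E14.5, so the genotypes stood in opposite order at the 2 stages, with 1 library each. The difference between the stages was not tested. The stages lay mostly in different fibroblast-like clusters.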

How the results depend on the processing

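Of 218 alternative values of the 4 genes in the 6 tests, 212 kept their direction and side of the threshold, 3 lost a call, 1 gained one and 2 changed sign. All 3 lost calls were in the gate test, the only test in which any of the 4 genes had passed. The genotype, stage and difference tests had no call to lose and few residual degrees of freedom. Staying on the same side of the threshold there says little. In the epicardial over fibroblast gate test without the library block, Tbx18 had a log2 of 1.24 (edgeR adjusted p = 0.075) and Tcf21 of -1.22 (0.12). With no block 517 genes were called, against 1010 with it. That test called 568 genes in DESeq2, 2453 with the epicardial gate applied first, an alternative chosen after seeing the data, and 2606 on clusters. Leaving out 1 library gave 338 to 1148 genes (338 without the Lats1/2 CKO and 630 without the control library of E13.5), 0.90 to 1.43 for Tbx18 and -1.56 to -1.22 for Tcf21. The genotype test in epicardial-like cells called 11 genes, but 7 with RLE size factors, 83 with no filter on low counts, 0 with gates at z of at least 3 (edgeR), 3 without the highest doublet scores, 42 with at least 500 genes per cell and 5 with the gates as designed. In fibroblast-like cells it called 1, but 4 with RLE, 10 in DESeq2, 138 with no filter, 6 at z of at least 3, 7 with cells passing exactly 1 gate, 21 with at least 500 genes, 22 with the epicardial gate first and 19 with the gates as designed. The stage test in epicardial-like cells called 81, but 47 in DESeq2, 125 with no filter, 21 at z of at least 3 and 49 without the highest doublet scores. In fibroblast-like cells it called 31, but 60 in DESeq2, 197 with no filter, 66 at z of at least 3, 91 with 1 gate, 85 with at least 500 genes, 178 with the epicardial gate first and 129 with the gates as designed. Tcf21 passed that test with no filter (log2 -0.88, edgeR adjusted p = 0.0095). The difference of genotype effects called 42, but 2 in DESeq2, 2 at z of at least 3 and 4 with the gates as designed, and 11 to 61 leaving out 1 library (11 without control E13.5 and 15 without Lats1/2 CKO E14.5). There Tcf21 had a log2 of 0.002 with no filter and -0.33 to 0.39 leaving out 1 library, with 0.385 without Lats1/2 CKO E13.5. The causes were not tested.

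Levels over the 4 libraries moved with the gates. In epicardial cells Tbx18 was 244 CPM with 1 gate, and Tcf21 was 149.3 CPM as designed, 148.6 at z of at least 3 and 100.4 with 1 gate. In fibroblast cells Wt1 was 62.2, 33.2 and 27.0 CPM at z of at least 3, with 1 gate and with the epicardial gate first, and Tbx18 was 87.8 and 81.1 CPM with 1 gate and with the epicardial gate first. Tcf21 was 369 CPM as designed, 379.5 at z of at least 3, 488 with 1 gate and 400.0 with the epicardial gate first, and Bnc1 was 22.7 and 26.5 CPM as designed and at z of at least 3. Shares of cells followed depth. At 1000 UMIs and without thinning, epicardial-like shares were 16.5% and 32.6% for Wt1, 25.3% and 38.5% for Tbx18, 12.2% and 25.9% for Tcf21 and 10.7% and 24.5% for Bnc1. Fibroblast-like shares were 4.76% and 8.69% for Wt1, 11.2% and 16.5% for Tbx18, 44.7% and 52.7% for Tcf21 and 0.389% and 0.616% for Bnc1. At 500 UMIs and with cells passing exactly 1 gate, 0 cells held Wt1 with Tbx18, Tbx18 with Bnc1 or Tcf21 with Bnc1. At that depth only 2.30% to 7.02% of all epicardial-like cells per library held 2 or more of the factors. A count of 0 in this smaller set therefore does not show that the genes exclude each other. The 4 tests that involve epicardial cells were not run with exactly 1 gate, since a library held under 10 such cells.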
